A study of Mus musculus with 3 samples.

Results

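The 10 genes described here encode surface molecules of cell adhesion: *Mcam*, *Alcam*, *Bcam*, *L1cam*, *Ncam1*, *Ncam2*, *Cadm1*, *Icam1* and *Vcam1*, whose products carry immunoglobulin domains, and *Cd44*, which belongs to another family and binds hyaluronan. They were taken by mouse symbol from a list of names, and all 10 were found by their Ensembl identifiers among the 22698 genes of the files. RNA-seq was performed on melan-a cells, an immortalized mouse melanocyte line, in 3 replicates labelled 1, 3 and 4. The cells carry the C57BL/6J background and were derived from mice lacking Ink4a-ARF, so every library comes from a line without these cell cycle inhibitors. No library was treated, but all were grown with 10% serum, 200 nM of the phorbol ester TPA and 200 pM cholera toxin. The authors deposited FPKM, that is reads per kilobase of gene relative to library size. The library size recovered from low values, here called depth, was about 53900000, 47000000 and 66300000 reads in replicates 1, 3 and 4. It would include any scaling between libraries, so it may differ from the number of reads sequenced. There is 1 condition and no control group, so levels are compared between genes and set against the spread of the replicates, which may be technical.

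Immunoglobulin-type adhesion molecules span the cell membrane, or are tied to it by a lipid anchor, and hold cells together by binding a like molecule on a neighbour, a related molecule, an integrin or the matrix. MCAM, ALCAM, L1CAM and NCAM1 were studied early in melanoma and in the neural crest, the embryonic source of melanocytes, and MCAM was first described as a melanoma antigen. ICAM1 and VCAM1 are ligands for the integrins of leukocytes and are best known from endothelium, where inflammatory cytokines acting through NF-kappaB induce them. CD44 binds hyaluronan outside the cell and proteins of the ezrin, radixin and moesin group inside it.

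The members ranged from among the highest genes of the cells to none detected. *Mcam* was highest, with a mean of 412 ± 29.9 FPKM (SD, n = 3 here and for the next 3). *L1cam* followed at 162 ± 1.79, *Cd44* at 128 ± 8.22 and *Cadm1* at 90.3 ± 10.3 FPKM. These 4 of 10 members lay within the highest 1000 of all 22698 genes. *Ncam1*, *Alcam* and *Bcam* had intermediate means of 36.4, 17.6 and 5.47 FPKM. *Vcam1* and *Icam1* had means of 0.070 and 0.027 FPKM, and *Ncam2* was listed at 0 in every replicate. Thus 7 of 10 members reached 1 FPKM in all 3 replicates, against 44.1% of all genes and 44.8% of the protein-coding ones, and the median of the members' means was 27.0 FPKM against 0.28 FPKM over all genes. The names were chosen with earlier results of these data known, so this excess is a description of the list.

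**Figure D1:**
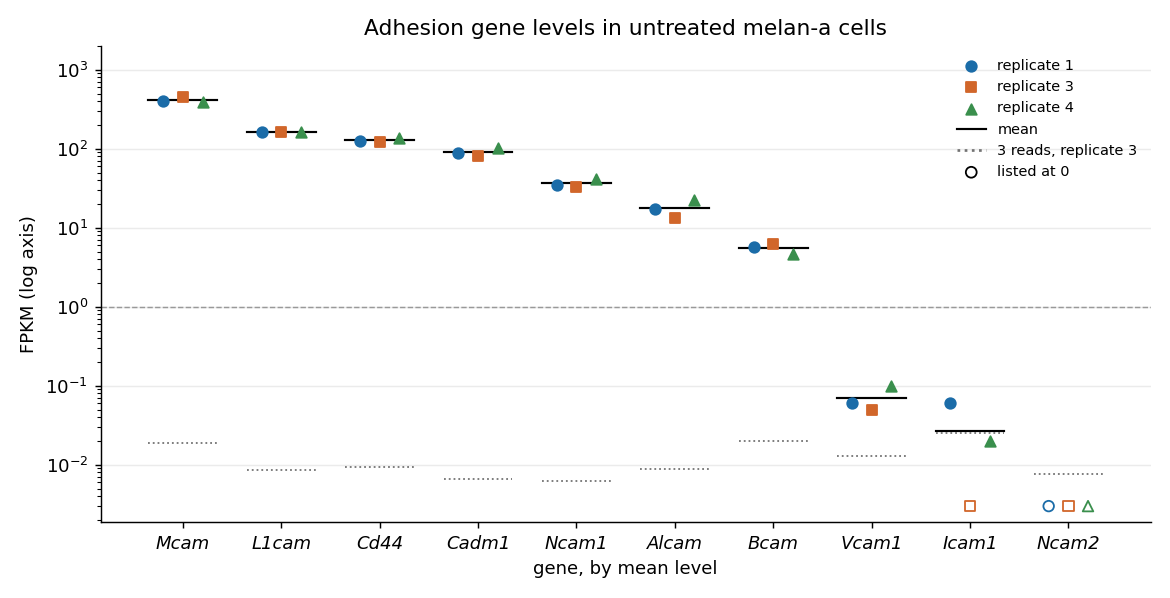
FPKM of each member (log axis) in replicates 1, 3 and 4, with the mean as a black bar, the value of 3 reads in replicate 3 as a dotted bar, 1 FPKM as a dashed line, and values listed at 0 as open symbols along the bottom. The 7 members on the left lie between 4.59 and 447 FPKM, and no value of *Vcam1*, *Icam1* or *Ncam2* exceeds 0.10 FPKM.

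Ordered by mean level, neighbouring members were separated beyond the replicates in 7 of 9 steps, from *Mcam* down to the step between *Bcam* and *Vcam1*. The closest separated pair was *L1cam* over *Cd44*, with a ratio of 1.30, 1.33 and 1.17 in replicates 1, 3 and 4. *Cd44* exceeded *Cadm1* by 1.43 ± 0.074 (SD, n = 3). *Vcam1* and *Icam1* could not be ordered, since the lowest *Vcam1* value of 0.05 FPKM lay under the highest *Icam1* value of 0.06 FPKM, nor could *Icam1* and *Ncam2*, which share a value of 0. An exact sign-flip test over 3 replicates cannot go below p = 0.25, so no p-value is given for these steps. The deposited values fit the joined exons of a gene better than its longest transcript, but the order of *Cd44* and *Cadm1* depends on which length is used. The joined exons and the longest transcript have 9734 and 4767 bases in *Cadm1* and 6851 and 5614 bases in *Cd44*. Per kilobase of the longest annotated transcript, *Cadm1* came to 184 ± 21.0 and *Cd44* to 157 ± 10.0 FPKM, and their ranges overlapped (SD, n = 3 for each).

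**Figure D2:**
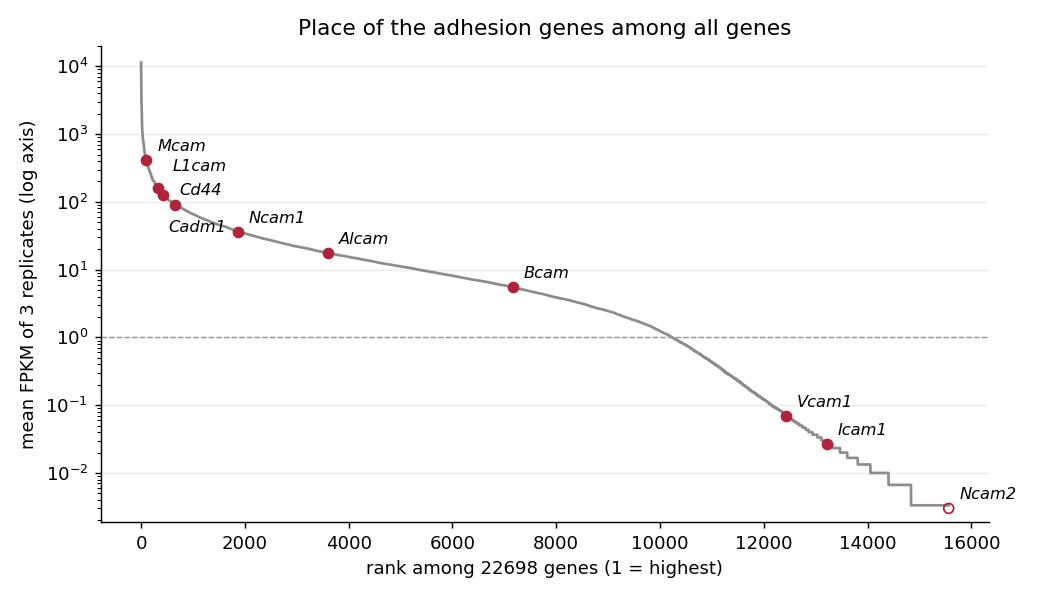
Mean FPKM of the 3 replicates (log axis) against rank for the genes above 0 of 22698 (grey line, 1 FPKM dashed), with the 10 members in red and *Ncam2*, listed at 0, as an open symbol at the end of the curve. *Mcam* holds rank 102, *Bcam* rank 7168 and *Icam1* rank 13209.

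Promoter windows are shown for the highest member, for *Cd44*, and for the members with the fewest reads that have one, to set the sequence beside the level. The RefSeq table of 300-base windows, from 250 bases before to 50 bases after a transcript start, held 7 of the 10 members, with *Ncam1*, *Vcam1* and *Cadm1* not listed. The table is built on GRCm38.p6, and each window printed matched mm9 exactly once, at the mm9 position given. Capitals mark the letters GCCNNNGGC (a core of TFAP2 sites), CACGTG and CATGTG (E-boxes of the kind MITF binds), GGAAATTCC (an NF-kappaB-type site) and TATAAA, searched on both strands, and the NF-kappaB-type letters were chosen with the windows in view. No 2 matches overlapped in the windows shown.
Mcam, chr9:43942491-43942790, plus strand: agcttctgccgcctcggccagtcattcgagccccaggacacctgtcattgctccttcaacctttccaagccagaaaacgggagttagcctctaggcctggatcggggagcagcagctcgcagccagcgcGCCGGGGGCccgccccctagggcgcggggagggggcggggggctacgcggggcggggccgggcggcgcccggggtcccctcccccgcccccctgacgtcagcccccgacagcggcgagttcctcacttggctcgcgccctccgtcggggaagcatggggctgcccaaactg
Cd44, chr2:102741773-102742072, minus strand: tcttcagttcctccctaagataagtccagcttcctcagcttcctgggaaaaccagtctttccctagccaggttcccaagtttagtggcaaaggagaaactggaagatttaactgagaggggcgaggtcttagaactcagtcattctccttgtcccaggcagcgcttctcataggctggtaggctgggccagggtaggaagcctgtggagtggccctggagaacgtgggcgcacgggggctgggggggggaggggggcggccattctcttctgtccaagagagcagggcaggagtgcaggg
Icam1, chr9:20820134-20820433, plus strand: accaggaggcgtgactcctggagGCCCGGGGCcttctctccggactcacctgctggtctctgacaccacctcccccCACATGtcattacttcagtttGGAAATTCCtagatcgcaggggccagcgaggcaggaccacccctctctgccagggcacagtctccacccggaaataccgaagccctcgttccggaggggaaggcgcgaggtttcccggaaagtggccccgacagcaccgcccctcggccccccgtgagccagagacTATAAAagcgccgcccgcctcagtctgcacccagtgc
Ncam2, chr16:81200692-81200991, plus strand: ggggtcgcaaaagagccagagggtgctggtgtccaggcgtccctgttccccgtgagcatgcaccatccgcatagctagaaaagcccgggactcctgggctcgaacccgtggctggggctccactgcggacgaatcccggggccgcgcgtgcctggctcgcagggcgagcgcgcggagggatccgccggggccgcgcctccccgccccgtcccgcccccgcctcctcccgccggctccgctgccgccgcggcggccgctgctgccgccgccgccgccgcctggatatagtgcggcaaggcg
The *Mcam* window held 1 TFAP2 core, GCCGGGGGC, and none of the other motifs. The *Icam1* window held a TFAP2 core, an E-box read as CACATG on this strand, the NF-kappaB-type site and TATAAA, although the gene had at most 0.06 FPKM. None of the 5 motifs was found in the *Cd44* or the *Ncam2* window. The paper gives the TFAP2A consensus as GCCNNNGG, a looser form that was not counted here. Both of these windows hold such letters, *Cd44* as GCCTGTGG and *Ncam2* as GCCAGAGG. *Ncam2*, the silent member, had the most CpG dinucleotides of the 7 windows, with 41 and a GC content of 75.7%, whereas *Cd44* had the fewest, with 6 and 58%. Among all 32851 windows of the table, 16.6% held GCCNNNGGC, 7.15% CACGTG, 14.2% CATGTG, 0.317% GGAAATTCC and 13.6% TATAAA. Their medians were 7 CpG dinucleotides and a GC content of 52.7%, so the *Cd44* window was near the first and above the second. Of the 7 windows searched, those of *Mcam*, *Icam1* and *Bcam* had GCCNNNGGC, so this stricter form occurred in members with high, near-silent and intermediate levels. For *L1cam* only the first of its listed windows by position was searched. That window, chrX:71126080-71126379, lies inside the annotated gene, so the other listed windows of *L1cam* may differ. A match of letters shows no binding.

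*Mcam*, *Alcam* and *Bcam* encode proteins with the same order of extracellular immunoglobulin domains. *Mcam* (ENSMUSG00000032135), the melanoma cell adhesion molecule, occupies chr9:43942552-43950810 on the plus strand with 16 joined exons (positions throughout are in mm9). Its level was 396, 447 and 394 FPKM in replicates 1, 3 and 4, and 101 genes had a higher mean. Replicates 1 and 4 were close, with replicate 3 above them. Within each replicate *Mcam* took 47.5%, 51.9% and 45.7% of the summed FPKM of the 10 members.

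*Alcam* (ENSMUSG00000022636), which binds itself and the lymphocyte receptor CD6, occupies chr16:52249109-52454187 on the minus strand. Its level was 17.3, 13.2 and 22.2 FPKM in replicates 1, 3 and 4, the widest relative spread among the 7 members at 1 FPKM or more. *Bcam* (ENSMUSG00000002980), a receptor for laminin alpha 5, occupies chr7:20341480-20356365 on the minus strand, and its level was 5.63, 6.19 and 4.59 FPKM in replicates 1, 3 and 4. *Bcam* was highest where *Alcam* was lowest, and *Alcam* exceeded *Bcam* by 3.07, 2.13 and 4.83 times. *Mcam* exceeded *Bcam* by 76.1 ± 8.42 and *Alcam* by 24.8 ± 8.24 times (SD, n = 3 for each).

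*L1cam*, *Ncam1* and *Ncam2* belong to the neural adhesion molecules, which add fibronectin domains to the immunoglobulin domains. *L1cam* (ENSMUSG00000031391), which promotes axon growth and binds itself and integrins, occupies chrX:71099117-71141444 on the minus strand and has 30 joined exons. It was the steadiest member, with 164, 161 and 161 FPKM in replicates 1, 3 and 4 and a coefficient of variation of 1.11%, lower than for all but 1.15% of the genes at 1 FPKM or more. The gene *Arhgap4* overlaps 1.36% of its exon bases on the same strand.

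*Ncam1* (ENSMUSG00000039542), which binds itself on neighbouring cells, occupies chr9:49310257-49607027 on the minus strand. Its level was 34.9, 32.4 and 41.8 FPKM in replicates 1, 3 and 4, so that replicate 4 stood above the others, and *L1cam* exceeded it by 4.51 ± 0.585 times (SD, n = 3). An antisense gene overlaps 2.51% of its exon bases, and whether the counting used the strand is not given in the sources used here. *Ncam2* (ENSMUSG00000022762), its paralog, occupies chr16:81200942-81624530 on the plus strand and was listed at 0 in all 3 replicates. At its length, 3 reads came to 0.0066, 0.0076 and 0.0054 FPKM in replicates 1, 3 and 4, and rounding to 2 decimals hides up to 2.26, 1.97 and 2.78 reads. *Ncam2* was therefore not detected at this depth, as were 31.4% of all genes, which were listed at 0 in every replicate.

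Schwann cells, which also come from the neural crest, carry L1CAM and NCAM1 as well. Of 6 Schwann cell markers, 5 reached 1 FPKM in every replicate, against 44.1% of all genes. Among them were *S100b* at 70.7 and *Ngfr* at 50.0 FPKM, and melanocytes are known to express several of these markers. The marker *Gfap* had a mean of 0.68 FPKM, and *Mbp* had 1.76 FPKM. The 6 markers summed to 213 to 251 FPKM. Their part in the levels of *L1cam* and *Ncam1* was not tested.

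*Cadm1* (ENSMUSG00000032076), a nectin-like molecule that binds itself and nectins, occupies chr9:47338256-47665720 on the plus strand. Its level was 89.5, 80.5 and 101 FPKM in replicates 1, 3 and 4, at rank 662. Replicate 4 was highest and replicate 3 lowest, and no deposited value reached the range of *Cd44*. Its joined exons span 9734 bases in 10 annotated transcripts, of which the longest has 4767 bases, which makes *Cadm1* the member whose level depends most on the length chosen. With *Mcam*, *Ncam1* and *Icam1*, it is one of 4 members on chromosome 9.

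*Icam1* (ENSMUSG00000037405), the ligand of the leukocyte integrins LFA-1 and Mac-1, occupies chr9:20820404-20833241 on the plus strand and has 1 annotated transcript of 2540 bases. Its level was 0.06, 0 and 0.02 FPKM in replicates 1, 3 and 4, or about 8.2, 0 and 3.4 reads. Replicate 1 thus supplied most of its signal, and without it the mean fell from 0.027 to 0.010 FPKM. A count of 0 in replicate 3 still allows 0.025 FPKM, the value of 3 reads. An annotated gene on the opposite strand, *Mir1900*, overlaps 19.3% of the exon bases of *Icam1*.

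*Vcam1* (ENSMUSG00000027962), the ligand of the integrin of alpha 4 and beta 1 chains, occupies chr3:115812938-115832606 on the minus strand. Its level was 0.06, 0.05 and 0.10 FPKM in replicates 1, 3 and 4, or about 15.9, 11.6 and 32.6 reads. All 3 values exceeded the value of 3 reads, which was at most 0.013 FPKM, so a trace was detected, at rank 12424. In bulk RNA a low level in every cell and a higher level in few cells cannot be told apart. Of the endothelial markers, 0 of 6 reached 1 FPKM in every replicate, against 44.1% of all genes. They summed to 0.04 to 0.06 FPKM, with *Tek* and *Emcn* at 0. Of the leukocyte markers, 0 of 6 reached 1 FPKM in every replicate, against 44.1% of all genes. Their summed level was 0.87 to 1.66 FPKM, nearly all of it from *Cd68*, with *Ptprc* and *Cd3e* at 0.

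*Cd44* (ENSMUSG00000005087) occupies chr2:102651298-102741822 on the minus strand, in 20 joined exons and 14 annotated transcripts. Its level was 127, 121 and 137 FPKM in replicates 1, 3 and 4, at rank 423, and its coefficient of variation of 6.40% was below the median of 11.4% for genes at 1 FPKM or more. In the deposited values the replicates lay close together and apart from every other member, though not apart from *Cadm1* per kilobase of the longest transcript. One value per gene does not separate standard CD44 from the forms with variant exons, nor the membrane forms of NCAM1.

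Of 10 close paralogs of the members, 2 reached 1 FPKM in every replicate, against 44.1% of all genes, namely *Cadm4* and *Nrcam*, with means of 221 and 87.9 FPKM. *Cadm4* had 230, 262 and 172 FPKM in replicates 1, 3 and 4, and exceeded *Cadm1* by 2.57, 3.26 and 1.70 times, while *Cadm2* had a mean of 0.030 FPKM and *Cadm3* was listed at 0. In the L1 family, *L1cam* exceeded *Nrcam*, which had 87.9, 76.8 and 98.8 FPKM, by 1.87 ± 0.234 times (SD, n = 3), and *Chl1* and *Nfasc* had means of 0.020 and 0.0067 FPKM. No ICAM gene reached 1 FPKM: *Icam4*, *Icam5* and *Icam2* had means of 0.63, 0.22 and 0.15 FPKM, each above *Icam1* in all 3 replicates. *Madcam1*, related to *Vcam1*, had a mean of 0.010 FPKM and stayed under 3 reads in every replicate.

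**Figure D3:**
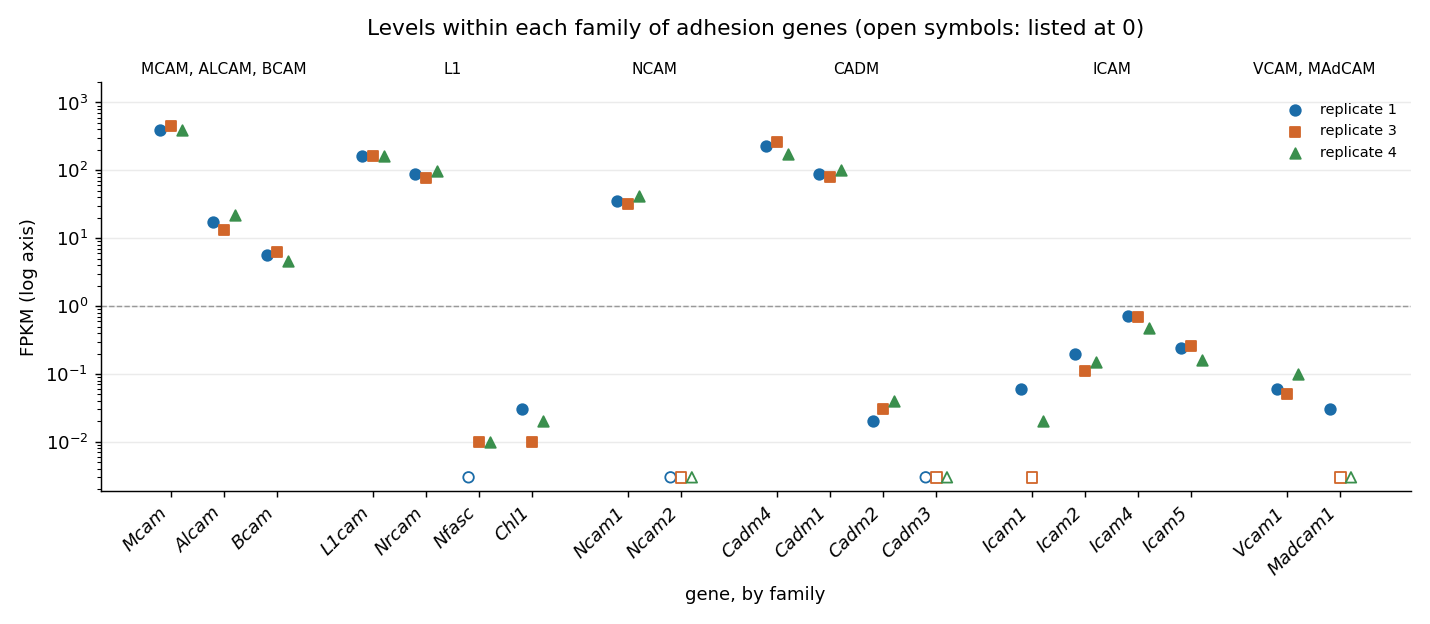
FPKM (log axis) of the immunoglobulin-type members and their close paralogs, grouped by family, in replicates 1, 3 and 4, with values listed at 0 as open symbols along the bottom and 1 FPKM as a dashed line. The L1 and CADM families each have 2 genes above 76 FPKM in every replicate and 2 at or below 0.04 FPKM, and every ICAM gene stays below 1 FPKM.

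The partners of the members fell on both sides of 1 FPKM as well. For *Icam1*, the genes of the leukocyte integrin chains were near silent. *Itgal* and *Itgam*, for the alpha chains of LFA-1 and Mac-1, and *Itgax*, for a related alpha chain, were at 0 in every replicate, and *Itgb2*, for the beta chain they share, had a mean of 0.060 FPKM. For *Vcam1*, the receptor genes were far above the ligand: *Itgb1* had 449, 414 and 495 FPKM and *Itga4* 29.3, 25.7 and 37.1 FPKM in replicates 1, 3 and 4, and *Itga9* had a mean of 3.09 FPKM. The alternative partner *Itgb7* had a mean of 0.027 FPKM. Of these 8 integrin genes, 3 reached 1 FPKM in every replicate, against 44.1% of all genes.

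Of 14 genes for other extracellular partners of the members, 9 reached 1 FPKM in every replicate, against 44.1% of all genes. *Lgals1* and *Lgals3*, which encode galectins that bind MCAM, had means of 2767 and 397 FPKM. *Lama4*, the laminin chain bound by MCAM, had 96.6 FPKM, whereas *Lama5*, the chain bound by BCAM, had 0.66 FPKM. *Itgav*, *Itga5* and *Itgb3*, whose integrins can bind L1CAM, had 32.7, 31.9 and 27.8 FPKM, and the co-receptor *Nrp1* had 35.9 FPKM. *Spp1*, whose product osteopontin binds CD44 and integrins, had 81.4 FPKM. *Fgfr1*, a receptor that NCAM1 and L1CAM engage, had 2.65 FPKM. The lymphocyte partners were not detected, with *Cd6*, the receptor for ALCAM, at 0 and *Crtam*, the receptor for CADM1, under 3 reads in every replicate. *Wnt5a*, for a secreted ligand of MCAM, had 0.19 FPKM, and *Gfra1*, for a GDNF receptor that binds NCAM1, had 0.097 FPKM.

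*Cd44* was high in cells with few transcripts for making its ligand. *Has1*, *Has2* and *Has3*, the hyaluronan synthases, had means of 0, 0.010 and 0.013 FPKM, and *Has2* came to about 3 reads or fewer in every replicate. The hyaluronidases *Hyal2* and *Hyal1* had 23.7 and 3.58 FPKM, and another hyaluronan receptor gene, *Hmmr*, which rises in dividing cells, had 17.2 FPKM. Thus 3 of 10 hyaluronan genes reached 1 FPKM in every replicate, against 44.1% of all genes. *Vcan* and *Tnfaip6*, which encode hyaluronan-binding proteins, had 0.030 and 0.097 FPKM, and the further receptor genes *Lyve1* and *Stab2* had 0.0033 FPKM each.

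Inside the cell, 8 of 11 partner genes reached 1 FPKM in every replicate, against 44.1% of all genes. *Msn*, *Ezr* and *Rdx*, which encode the linkers of CD44 to actin, had means of 352, 64.9 and 19.9 FPKM, in the same order in all 3 replicates. *Actn4* and *Sptbn1*, for actinin and spectrin, had 669 and 67.6 FPKM, *Epb41l3*, whose product binds the tail of CADM1, had 35.3 FPKM, and the kinase gene *Fyn* had 26.9 FPKM. Of the ankyrins that L1CAM binds, *Ank2* had 3.21 and *Ank3* 0.027 FPKM. *Mpp3* and *Tiam1*, also linked to CADM1, had 0.0033 and 0.28 FPKM.

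The polysialyltransferase genes were at or near 0 beside *Ncam1*. *St8sia2* and *St8sia4* attach polysialic acid to NCAM1, which weakens its adhesion. *St8sia4* was at 0 in every replicate, and *St8sia2* came to about 3 reads or fewer in each. The splicing regulators differed among themselves, with *Ptbp1* at 161 FPKM, *Khdrbs1* at 36.8, *Rbfox2* at 10.1 and *Ptbp2* at 5.93 FPKM, whereas *Esrp1* and *Esrp2*, which favour the variant exons of CD44 in epithelia, had means of 0.0033 and 0.027 FPKM. Thus 4 of 6 regulators reached 1 FPKM in every replicate, against 44.1% of all genes. Isoforms cannot be read from these values.

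**Figure D4:**
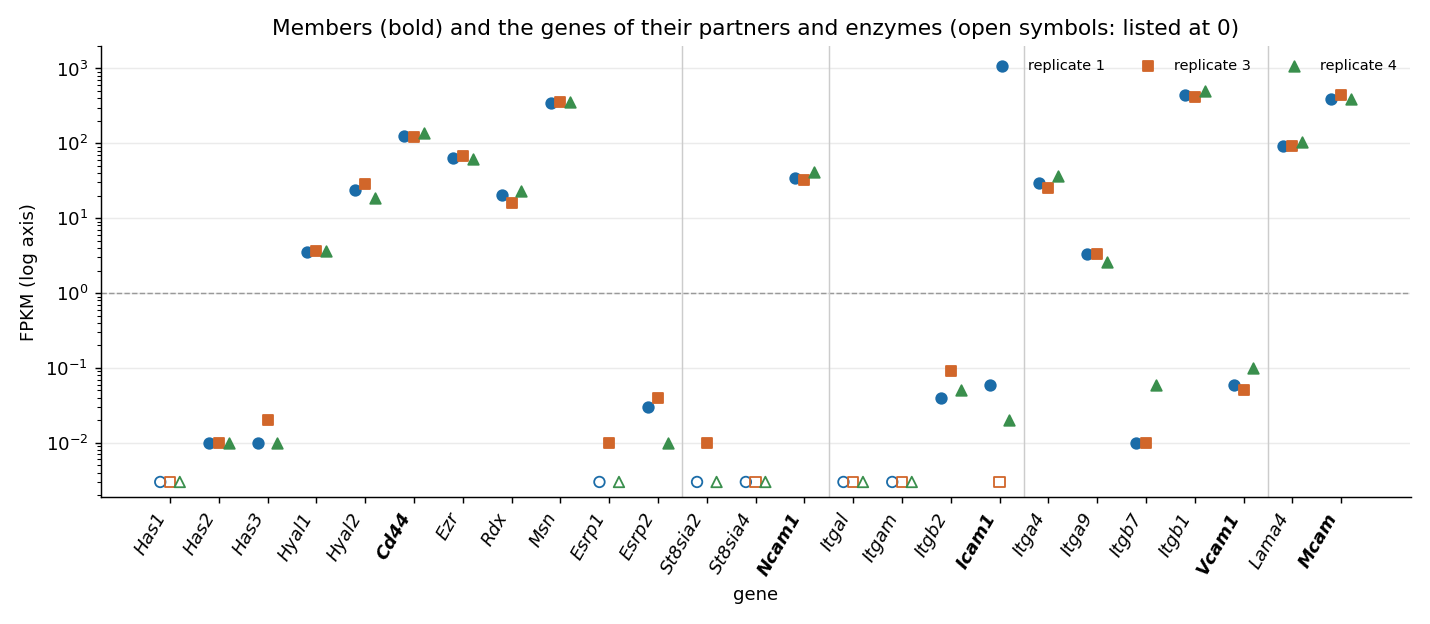
FPKM (log axis) of *Cd44*, *Ncam1*, *Icam1*, *Vcam1* and *Mcam* (bold) beside genes of their ligands, receptors, linkers and modifying enzymes, in replicates 1, 3 and 4, with values listed at 0 as open symbols along the bottom and 1 FPKM as a dashed line. *Cd44* stands above 120 FPKM while the 3 hyaluronan synthases stay at or below 0.02 FPKM, and *Itgb1* stands at or above 414 FPKM while *Vcam1* stays at or below 0.10 FPKM.

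ICAM1 and VCAM1 are known to be induced through NF-kappaB factors and inflammatory cytokine receptors. Of 11 genes for these, 10 reached 1 FPKM in every replicate, against 44.1% of all genes. The TNF receptor gene *Tnfrsf1a* was highest at 106, 121 and 97.4 FPKM in replicates 1, 3 and 4. *Rela* and *Nfkb1* had means of 56.9 and 27.2 FPKM, and *Ifngr1* and *Ifngr2* had 16.6 and 15.7 FPKM. The interleukin 1 receptor gene *Il1r1* was listed at 0. No library was treated with a cytokine, so induction was not measured.

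Among replicates, 1 member differed by more than 1.5-fold between replicates 3 and 4, namely *Alcam*, which was 1.68 times higher in replicate 4. Over the genes at 1 FPKM or more, 17.9% passed this limit in either direction and 11.8% with replicate 4 higher. Between replicates 1 and 4 no member passed it, and between replicates 1 and 3 only *Icam1* did, on a few reads. In these pairs 3.24% and 1.86% of the genes at 1 FPKM or more passed. All these shares leave out *Icam1*, *Vcam1* and *Ncam2*, which lie below 1 FPKM. The log2 ratio of replicate 3 to replicate 4 was -0.75 for *Alcam*, -0.33 for *Cadm1* and -0.18 for *Cd44*, whose joined exons have a GC content of 43.4%, 43.6% and 45.1%. It was -0.37 for *Ncam1* at 48.9% and 0.00 for *L1cam* at 51.7%. It was positive for *Mcam*, 0.18 at 55.1%, and for *Bcam*, 0.42 at 59.0%. Genes with a GC content from 40% to 46% had a median of -0.40, those from 46% to 52% had -0.05 and those from 52% to 60% had 0.31. The members with low GC content thus leaned to replicate 4 and those with high GC content to replicate 3, as other genes did, and the part of GC content in the spread of each member was not tested.

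**Figure D5:**
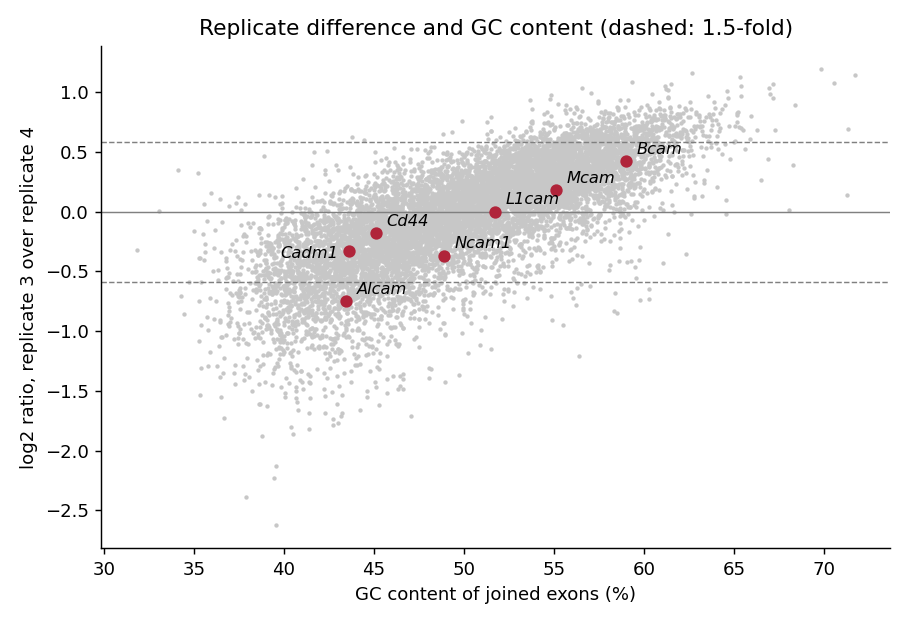
Log2 ratio of replicate 3 to replicate 4 (FPKM + 0.1) against the GC content of the joined exons (%) for the genes at 1 FPKM or more in every replicate (grey points), with the 7 members among them in red and dashed lines at 1.5-fold either way. *Alcam* lies below the lower line at -0.75, and *Bcam*, with the highest GC content of the 7, lies highest at 0.42.

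The label of the cells was checked against markers. Of 11 melanocyte markers, 10 reached 1 FPKM in every replicate, against 44.1% of all genes. They ranged from *Mc1r* at 20.8 to *Tyrp1* at 3144 FPKM, and *Kit* had 0.68 FPKM. Among 7 keratinocyte markers only *Sfn* reached 1 FPKM in every replicate, and among 6 fibroblast markers only *Col1a1* did, against the same 44.1%. Keratinocyte markers summed to 2.33 to 3.02 FPKM, with *Krt1* and *Trp63* at 0. Fibroblast markers summed to 1.61 to 1.95 FPKM, with *Lum* at 0.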

How the data were processed

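RNA from untreated melan-a cells was sequenced in 3 replicates. Per the paper's methods and the submitters' processing notes, stranded libraries were sequenced, reads lost their first 10 bases, STAR 2.3.0e placed them on mm9, those of rRNA were dropped, and genes of Ensembl release 67 were counted with HTSeq 0.5.3p3. The authors deposited FPKM values with TMM scaling between libraries, given to 2 decimals. How counts became FPKM is not given in the sources used here.

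Positions, lengths and GC content were read from Ensembl release 65 on mm9, where 22324 of the 22698 genes were found. Depth was taken as the library size, after any TMM scaling, at which 64 to 74 short genes with 1 transcript gave whole reads (mean distance 0.039 to 0.062 reads). In genes with several transcripts, joined exons gave values nearer to whole reads (mean distance 0.139 to 0.154) than the longest transcript did (0.177 to 0.220). A level of 3 reads was taken as the smallest measurable, and it covers counting error only. Reads were worked out from rounded values, so a gene close to 3 reads cannot be placed above or below that level with certainty. Ratios of replicates used FPKM + 0.1.

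Without counts or a second condition no test was made. Members and lists were chosen with earlier results of these data known. The genes named were the members, the 3 highest genes of each list, those at 0 or under 3 reads, and direct partners, and a few genes of the lists are not reported here. Python 3.11.15, pandas 2.3.3, numpy 2.4.6 and matplotlib 3.10.9 were used, and the depth and ratio steps were tested on simulated data.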

Additional observations from a re-analysis of the deposited data

How the results depend on the processing

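The number of members at 1 FPKM or more in every replicate was 7 without each replicate in turn, with every replicate brought to a sum of 1000000, and at a threshold of 0.5 FPKM, and 6 at a threshold of 5 FPKM. The number of neighbours with separate ranges was 7 or 8 without each replicate, and 7 per kilobase of the longest transcript, a length chosen after seeing the data, where *Cadm1* and *Cd44* changed places. The median of the members' means lay between 24.5 and 29.1 FPKM without each replicate. It moved to 72.0 after rescaling, which changes the unit, and to 38.2 per kilobase of the longest transcript, which is shorter than the joined exons in 9 of 10 members. The number of members past 1.5-fold was 1 between replicates 3 and 4 and 0 between replicates 1 and 4. It was 3 after rescaling, when *Vcam1* and *Icam1* joined *Alcam*, and 2 without a pseudocount, when *Vcam1* joined. These added genes have few reads. For single members, 89 of 108 levels or ranks moved by no more than the SD between replicates and 19 moved by more, of which 16 followed from rescaling or the other length and 3 were the rank of *Ncam2*, which is tied at 0. No paired analysis was possible because there is 1 group. Depth and rounding limit *Icam1* and *Ncam2*.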

Other observations

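Beyond the members, their paralogs and their partners, 12 of 26 other immunoglobulin-type surface genes reached 1 FPKM in every replicate. This share is near the 44.1% of all genes. *Bsg*, which encodes basigin, a partner of lactate transporters, had 717, 853 and 620 FPKM in replicates 1, 3 and 4 and exceeded *Mcam* by 1.76 ± 0.171 times (SD, n = 3). *Mpzl1* and *Igsf8* followed with means of 102 and 38.5 FPKM, and *Nptn*, related to *Bsg*, had 36.5 FPKM. The nectin-type genes *Pvr*, *Pvrl2* and *Pvrl3* had 20.4, 13.2 and 1.56 FPKM, whereas *Pvrl1* and *Pvrl4* had 0.52 and 0.057 FPKM. The junction genes *Jam2*, *F11r* and *Jam3* had 8.80, 3.09 and 1.37 FPKM, and *Cd47* had 4.39 FPKM. *Dscam* and *Lsamp*, known from neurons, were at 0 in every replicate. *Pecam1*, *Emb* and *Mpzl2* came to about 3 reads or fewer in every replicate, and *Cntn1*, *Cntn2*, *Esam*, *Cxadr* and *Thy1* did so in at least 1.

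Proteases that release the outer part of CD44, L1CAM, ALCAM and other adhesion molecules were mostly expressed. Of 8 genes of sheddases and gamma-secretase, 7 reached 1 FPKM in every replicate, against 44.1% of all genes. *Mmp14* had 148, 153 and 131 FPKM in replicates 1, 3 and 4 and *Adam10* had 121, 97.1 and 143 FPKM, so neither was above the other in every replicate. *Ncstn*, for a gamma-secretase subunit, had a mean of 91.3 FPKM. *Bace1*, *Adam17* and *Adam19* had 15.1, 12.1 and 2.55 FPKM, and *Adam8* had 0.40 FPKM.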
